A study of Mus musculus with 3 samples.

Results

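The annexins are a family of proteins that bind phospholipid membranes in the presence of calcium, and several of them work with small partner proteins of the S100 family. The genes described here were Anxa1, Anxa2, Anxa3, Anxa4, Anxa5, Anxa6, Anxa7 and Anxa11, with S100a10 and S100a11 as the S100 partners. They were taken by symbol, and all 10 were found among the 56748 genes of the table. RNA sequencing was done on cultured adult cardiomyocytes (ACMs) isolated from the hearts of wild-type (WT) mice aged 8 to 10 weeks. The study asked which transcripts respond when cytokines that signal through JAK1, a tyrosine kinase, reach these cells. The groups were vehicle (bovine serum albumin, BSA), 10 ng/mL human interleukin-6 (IL-6) and 10 ng/mL mouse oncostatin M (OSM), each for 16 h. RNA samples of a condition were pooled before library preparation, so that each condition was 1 library, and how many animals entered a pool is not given in the sources used here. With no replicates, no test across replicates was possible and every difference below compares libraries, not conditions. The libraries held 24939980 counts (vehicle), 26362446 counts (IL-6) and 30773001 counts (OSM).

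Annexins share a curved core of repeated domains whose convex face docks on acidic phospholipids such as phosphatidylserine when calcium rises. They take part in the resealing of torn plasma membrane, in vesicle traffic and in the linking of membranes to the actin cytoskeleton, all of which matter in contracting heart muscle. S100A10 is an S100 protein that has lost calcium binding and is held in a complex with annexin A2, which protects it from degradation, and S100A11 binds annexin A1 and annexin A2.

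Cardiomyocyte markers stood far above the markers of other cell types in all of the libraries. Levels of different genes are compared as FPKM, the fragments of a gene scaled by the authors for gene length and library depth. The 12 cardiomyocyte markers summed to 14480 FPKM with vehicle, 14905 FPKM with IL-6 and 19454 FPKM with OSM, and Mb, the oxygen carrier myoglobin, was the most abundant of them. Markers of other cell types were low by comparison. Smooth muscle and pericyte markers summed to 13.6, 13.6 and 16.1 FPKM in the vehicle, IL-6 and OSM libraries, most of it Acta2. Endothelial markers, led by Cdh5, came to 7.28, 7.36 and 7.86 FPKM. Macrophage markers came to 1.78, 1.25 and 2.10 FPKM, led by Csf1r, while Ptprc, C1qa, C1qb and Fcgr1 had no count in any library. Each of the 8 fibroblast markers lay under 1 FPKM, and their sum was 0.888, 1.10 and 1.23 FPKM.

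**Figure D1:**
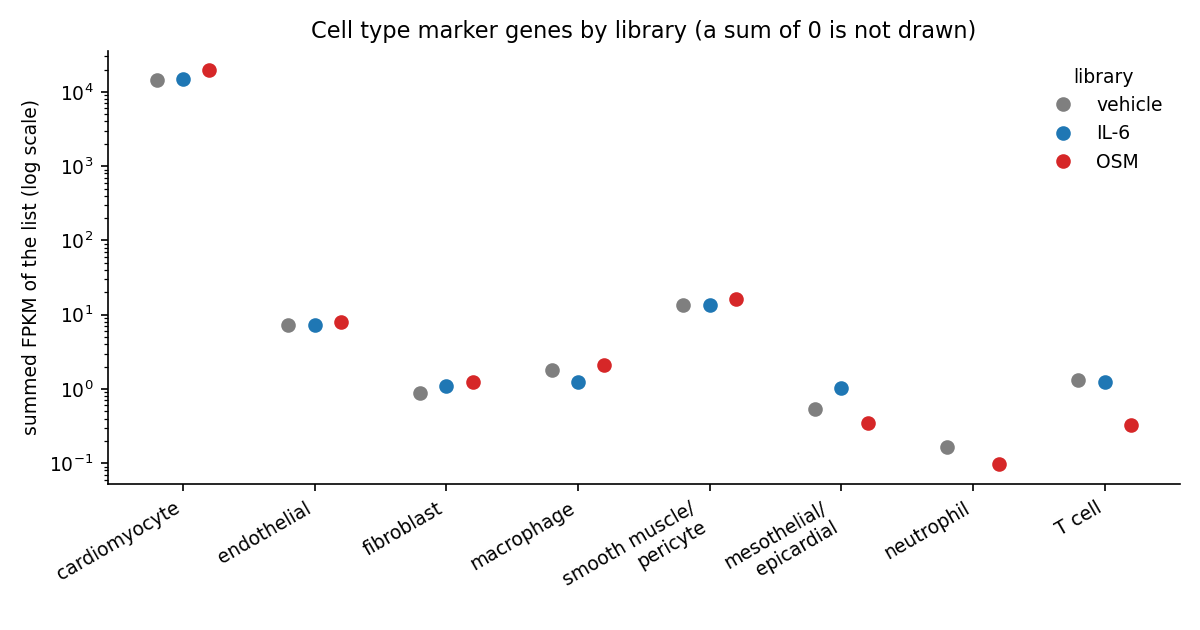
Summed FPKM of each list of cell type markers (log scale) in the vehicle, IL-6 and OSM libraries, 1 point per library. The cardiomyocyte list stands between 14480 and 19454 FPKM, and no other list passes 16.1 FPKM.

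In the OSM library, the transcripts of the annexin A2 complex and of S100A11 were far more abundant than with vehicle, and that of annexin A7 was about double. Of the 10 members, 4 were called higher with OSM than with vehicle (Anxa2, S100a10, S100a11 and Anxa7) and 0 lower. A gene was called when the whole 95% Clopper-Pearson interval of its ratio lay beyond 2-fold, after TMM scaling. Genes were compared when both libraries of a pair together held 10 counts or more. These intervals cover counting error only, since reads copied by PCR and carrying no molecular identifier do not each stand for a molecule. By the same rule 3.74% of the 15537 compared genes were higher and 5.43% were lower. With IL-6 against vehicle 0 of the 10 members were called in either direction, beside 1.77% higher and 1.74% lower of 15472 genes. With OSM against IL-6, 4 of the 9 members compared were called higher and 0 lower, beside 4.24% higher and 5.42% lower of 15544 genes. The comparisons share libraries: vehicle serves both cytokines, and the OSM library serves both comparisons that name it. In a bulk library, a change in the number of cells of a type and a change in RNA per cell cannot be told apart.

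**Figure D2:**
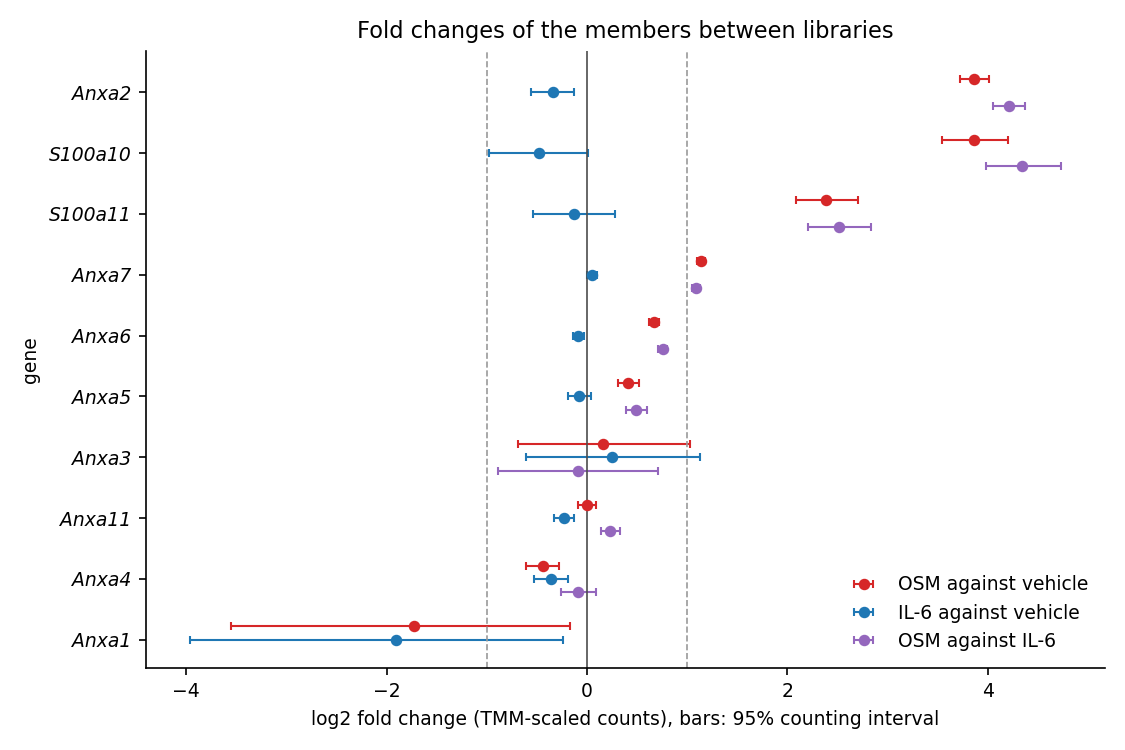
Log2 fold change of each member with its 95% counting interval, in the comparisons of each cytokine with vehicle and of OSM with IL-6, 1 library per condition. With OSM, Anxa2 (3.87), S100a10 (3.86), S100a11 (2.39) and Anxa7 (1.14) have whole intervals beyond 2-fold, and with IL-6 no member does.

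Anxa2 encodes the annexin that gathers actin and phosphatidylserine-rich membrane at wound sites. The gene (ENSMUSG00000032231) lies on chromosome 9, at chr9:69360902-69399077 of GRCm39, and S100a10 (ENSMUSG00000041959) lies at chr3:93462387-93471950. Anxa2 stood at 4.19 FPKM with vehicle, 3.30 FPKM with IL-6 and 61.1 FPKM with OSM. S100a10 stood at 2.67 FPKM with vehicle, 1.92 FPKM with IL-6 and 39.0 FPKM with OSM. For both genes the vehicle and IL-6 libraries were low and the OSM library was high. Among 15157 genes with counts in both libraries, ordered by fold change of OSM against vehicle, Anxa2 was number 38 and S100a10 number 39. By level, Anxa2 moved from place 6335 among all genes in the vehicle library to place 808 in the OSM library, and S100a10 from place 7695 to place 1236.

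The proportion of the pair was similar in every library although its level differed widely. The FPKM of S100a10 divided by that of Anxa2 was 0.639 with vehicle (95% interval 0.497 to 0.813), 0.581 with IL-6 (0.436 to 0.762) and 0.638 with OSM (0.602 to 0.676). These intervals overlap one another. The difference between the log2 fold changes of S100a10 and Anxa2, in which the scaling between libraries cancels, was -0.00 for OSM against vehicle (-0.36 to 0.37). The same difference was -0.14 for IL-6 against vehicle (-0.68 to 0.40) and 0.14 between OSM and IL-6 (-0.27 to 0.56). Without a correction for gene length, a difference between the genes was not detectable at this depth within those bounds. When the median of genes of like length was subtracted, the log2 fold change for OSM against vehicle was 3.73 for Anxa2 and 3.35 for S100a10. Against IL-6 the values were 4.07 for Anxa2 and 3.86 for S100a10, and the order of the genes turned. Whether the genes changed equally therefore depends on the treatment of gene length.

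Promoter sequences were looked up because several members were higher in the OSM library, although not to the same extent. RefSeq promoter entries were found for 7 of the 10 members, with 9 promoters in all, and none were found for S100a10, Anxa3 and Anxa6. The 250 bases before each RefSeq start were searched for TTCNNNGAA, the core letters of STAT factor sites, and for TGANTCA, those of AP-1 sites. Both motifs read the same on either strand, and the matches found did not overlap. TTCNNNGAA was present in 0 of the 9 promoters, beside 7.02% of the 32851 mouse promoters in the RefSeq table. TGANTCA was present in the promoters of Anxa2 and S100a11 and in none of those of Anxa1, Anxa4, Anxa5, Anxa7 and Anxa11, beside 6.75% of all promoters. Of the 3 members with an entry that were called higher with OSM, Anxa7 was thus without a match. Some windows held transcribed sequence: exons annotated in GENCODE M39 covered all 250 bases for Anxa1 and Anxa5, 192 bases of 1 of the Anxa7 windows, 141 bases for Anxa11, and 76 and 32 bases of the Anxa4 windows. The windows of Anxa2 and S100a11 also ran into an exon, which begins at base 69360902 for Anxa2 and at base 93427677 for S100a11. In Anxa2 the match lay at bases -95 to -89 from the start. In S100a11 there was a match at bases -136 to -130 and another at bases -38 to -32. The latter lies upstream of the S100a11 start in the authors' table but inside an exon that begins at base 93427677 in GENCODE M39, and is not shown. The sequences up to the next exon of either annotation are printed to show these letters in context, 5' to 3' on the + strand, with the AP-1 letters in capitals. They come from RefSeq (table build GRCm38.p6) and were placed on GRCm39 by exact match, at chr9:69360715-69360901 for Anxa2 and chr3:93427553-93427676 for S100a11. For each gene, 1 GENCODE M39 transcript begins further upstream, and the printed bases lie in an intron of it.
Anxa2 promoter: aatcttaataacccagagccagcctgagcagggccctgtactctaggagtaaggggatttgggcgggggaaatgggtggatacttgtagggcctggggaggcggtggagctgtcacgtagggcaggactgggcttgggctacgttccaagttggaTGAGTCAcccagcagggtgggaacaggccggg
S100a11 promoter: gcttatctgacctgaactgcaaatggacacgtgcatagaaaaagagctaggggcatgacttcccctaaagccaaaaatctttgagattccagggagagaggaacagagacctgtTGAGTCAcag
A match describes letters in the window and was not tested as a binding site, and a missing match says only that the letters are not in the window.

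S100a11 encodes the partner that annexin A1 and annexin A2 use in membrane repair and vesicle docking. The gene (ENSMUSG00000027907) lies at chr3:93427795-93433594, and its start is 34.6 kb from that of S100a10. S100a11 had 102 counts with vehicle, 100 with IL-6 and 630 with OSM, or 7.89, 7.22 and 41.3 FPKM. Vehicle and IL-6 were again alike and OSM was high. The log2 fold change was 2.39 for OSM against vehicle (2.08 to 2.70) and 2.51 for OSM against IL-6 (2.21 to 2.83), and both calls were lost under another rule, an exact test with an assumed coefficient of variation of 0.4 between replicates.

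The rise of S100a11 was smaller than that of the annexin A2 pair. For OSM against vehicle, its log2 fold change less that of Anxa2 was -1.48 (-1.82 to -1.13). In FPKM, the ratio of S100a11 to Anxa2 was 1.89 with vehicle, 2.19 with IL-6 and 0.675 with OSM. By FPKM, S100a11 was thus the higher in the vehicle and IL-6 libraries, and Anxa2 in the OSM library. This crossing depends on the gene lengths of the authors' table, 511 bases for S100a11 and 3731 for Anxa2. Their canonical transcripts in GENCODE M39 have 2328 and 1447 bases. The ratio of counts, not per length, was 0.258, 0.299 and 0.0925, so that by counts Anxa2 was the higher in every library. The ratio of S100a11 to S100a10 was 2.95, 3.76 and 1.06 in the vehicle, IL-6 and OSM libraries, also in FPKM.

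The S100a11 level is uncertain because near-identical copies of the transcript lie elsewhere in the genome. Of the 511 bases of the counted gene, 502 (98.2%) had a copy with at least 95% identity. The copies include the processed pseudogene Gm12854, at 98.2% identity over 503 bases, and another processed pseudogene at 98.6%. How the counting treated reads that match several places is not given in the sources used here. Gm12854 was found by its sequence, outside the rule for named genes, and had 5, 5 and 12 counts in the vehicle, IL-6 and OSM libraries. It lies within Uqcrh, an abundant protein-coding gene of the respiratory chain with 9098, 9526 and 16454 counts, and how reads there were assigned between these genes was not tested. The other pseudogene had 7, 4 and 26 counts. In an alternative chosen after seeing the data, the counts of both pseudogenes were added to those of S100a11, which gave 114 counts with vehicle, 109 with IL-6 and 668 with OSM. The log2 fold change for OSM against vehicle was then 2.31 (2.02 to 2.61). The 8 annexins had no such copy, and S100a10 had none within its counted length. S100a11-ps, a pseudogene by its symbol, had 0 counts in every library.

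Anxa1, the other annexin that S100A11 binds, encodes a mediator of the resolution of inflammation and was close to the limit of detection. It had 14 counts with vehicle, 4 with IL-6 and 5 with OSM, where 3 counts, taken as the floor, were 0.120, 0.114 and 0.0975 CPM, counts scaled to the library total. Vehicle was highest of these low values. As a log2 fold change this was -1.73 for OSM against vehicle (-3.55 to -0.17) and -1.91 for IL-6 against vehicle (-3.97 to -0.24), and neither passed the call. By the point estimate alone, with no interval, Anxa1 would count as lower in both. With 9 counts over the pair, Anxa1 was not compared between OSM and IL-6. The ratio of S100a11 to Anxa1 in FPKM was 41.5 with vehicle (23.6 to 78.6), 142 with IL-6 (53.9 to 533) and 718 with OSM (306 to 2218). The ratio of counts, not per length, was 7.29, 25 and 126. On both scales S100a11 was above Anxa1 in every library, and the size of the ratio is poorly fixed by so few Anxa1 counts.

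Anxa7 encodes annexin A7 (synexin), which binds the calcium-handling protein sorcin in heart muscle and promotes membrane fusion. The gene (ENSMUSG00000021814, chr14:20505328-20530201) had 6415 counts with vehicle, 7106 with IL-6 and 16704 with OSM. OSM stood above the other libraries, which were close to each other. Anxa7 had a log2 fold change of 1.14 for OSM against vehicle (1.10 to 1.18), number 1155 of 15157 genes, and 1.09 for OSM against IL-6 (1.05 to 1.13). These intervals are narrow because the counts are high, and they lie just past the 2-fold line, at 1.00 on the log2 scale. The call for OSM against vehicle was lost with a 4-fold line or with the exact test at an assumed coefficient of variation of 0.2, and that for OSM against IL-6 was also lost when libraries were scaled by total counts.

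Sri, the gene of sorcin, was chosen for mention after its values were seen. It stood at 2.51 FPKM with vehicle, 3.35 FPKM with IL-6 and 5.55 FPKM with OSM. Its log2 fold change for OSM against vehicle, 1.14 (0.95 to 1.34), had an interval that reached below 2-fold, and it was not called.

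Anxa6 encodes a large annexin made of a duplicated core, abundant in heart muscle, where it associates with the sarcolemma and with calcium transport. It had the highest FPKM of the family in every library, at 78.3 with vehicle, 73.8 with IL-6 and 125 with OSM. This place depends on gene length: the authors' table gives Anxa7 5991 bases and Anxa6 2930. Their canonical transcripts in GENCODE M39 have 2851 and 2785 bases. By counts Anxa7 stood above Anxa6 in every library, with 6415 beside 5806 with vehicle and 16704 beside 10912 with OSM. The log2 fold change of Anxa6 for OSM against vehicle was 0.67 (0.62 to 0.71), which did not pass 2-fold. Anxa7 and Anxa6 differed in their change: in FPKM the ratio of Anxa7 to Anxa6 was 0.540 with vehicle, 0.593 with IL-6 and 0.749 with OSM. The difference of their log2 fold changes was 0.47 for OSM against vehicle (0.41 to 0.53), beyond counting error.

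Anxa5 encodes the phosphatidylserine-binding annexin that is used as a probe of dying cells and that forms lattices on damaged membrane. It stood at 27.3 FPKM with vehicle, 25.9 FPKM with IL-6 and 36.4 FPKM with OSM. The OSM library had the highest value, but the log2 fold change against vehicle, 0.41 (0.31 to 0.52), did not reach the call. Anxa11, whose protein tethers RNA granules to lysosomes, was almost the same with vehicle and OSM, at 16.5 FPKM in both, and 14.05 FPKM with IL-6. Its log2 fold change for OSM against vehicle was 0.00 (-0.09 to 0.09). Anxa4, an annexin of epithelia that also assembles on membrane wounds, stood at 5.51, 4.31 and 4.06 FPKM with vehicle, IL-6 and OSM. Its log2 fold change was -0.44 for OSM against vehicle (-0.61 to -0.28) and -0.36 for IL-6 against vehicle (-0.52 to -0.19), neither of them called. Anxa3 was near the bottom of the range, with 22, 28 and 29 counts in the vehicle, IL-6 and OSM libraries, and differences between these were not detectable at this depth.

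**Figure D3:**
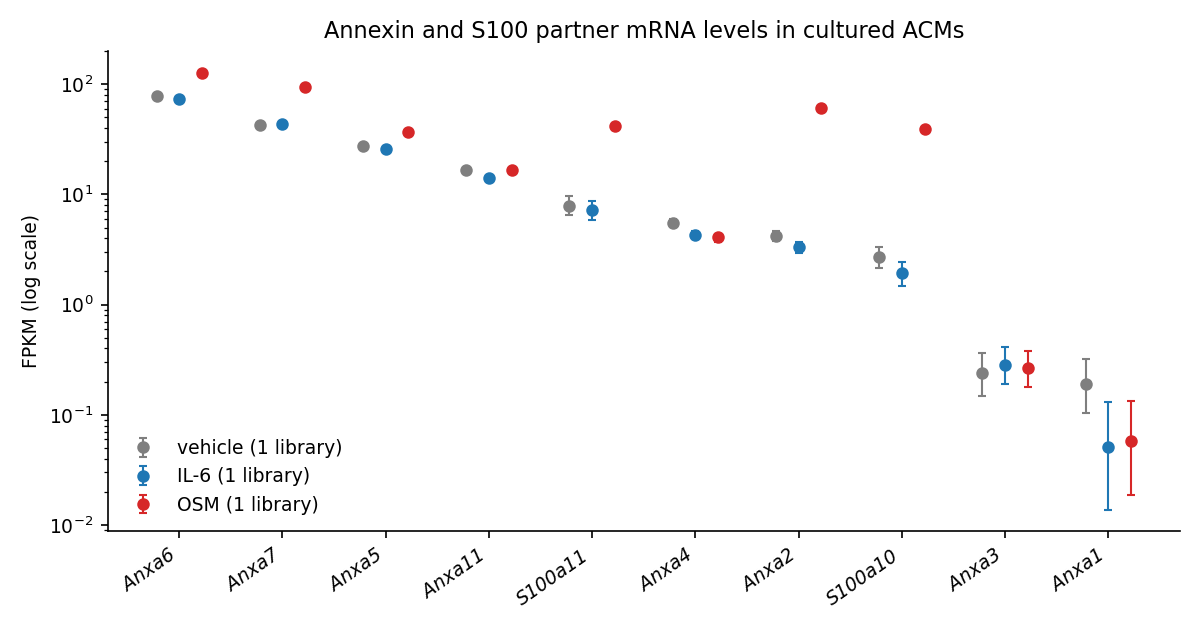
FPKM (log scale) of the 10 members in the vehicle, IL-6 and OSM libraries, 1 point per library with its 95% counting interval, ordered by the vehicle level. Anxa2 (4.19 to 61.1 FPKM), S100a10 (2.67 to 39.0 FPKM) and S100a11 (7.89 to 41.3 FPKM) stand apart in the OSM library, while Anxa1 and Anxa3 stay under 1 FPKM.

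The order of the members by FPKM was the same in the vehicle and IL-6 libraries: Anxa6, Anxa7, Anxa5, Anxa11, S100a11, Anxa4, Anxa2, S100a10, Anxa3 and Anxa1. Each step exceeded counting error, except that of Anxa3 over Anxa1 with vehicle, a ratio of FPKM of 1.26 (0.614 to 2.65). With OSM the order was Anxa6, Anxa7, Anxa2, S100a11, S100a10, Anxa5, Anxa11, Anxa4, Anxa3 and Anxa1. There, S100a11 over S100a10, a ratio of FPKM of 1.06 (0.962 to 1.16), and S100a10 over Anxa5, 1.07 (1.00 to 1.15), were not resolved by counting. Anxa2 passed Anxa5, Anxa11, S100a11 and Anxa4 between the vehicle and OSM orders. These orders rest on the gene lengths of the authors' table. Those are 3731 bases for Anxa2 and 5991 for Anxa7, beside 1447 and 2851 bases in their canonical transcripts of GENCODE M39. For S100a11 and S100a10 they are 511 and 1212 bases, beside 2328 and 3419. Orders by other lengths were not computed.

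Summed over the 12 annexin genes of the table, annexin transcripts came to 176 FPKM with vehicle, 167 FPKM with IL-6 and 337 FPKM with OSM. Anxa2 made up 2.38% of this sum with vehicle, 1.98% with IL-6 and 18.1% with OSM, and so moved from place 6 to place 3 among the annexins. The share of Anxa6 was 44.6%, 44.2% and 37.0% in the same libraries. Anxa7 held 24.1%, 26.2% and 27.7%. The share of Anxa5 was smaller with OSM (10.8%) than with vehicle (15.6%) although its own FPKM was higher, because the sum was larger. Measured in counts, which are not per length, Anxa7 led the annexins instead, with 39.4% of annexin counts with vehicle, 42.4% with IL-6 and 42.8% with OSM.

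**Figure D4:**
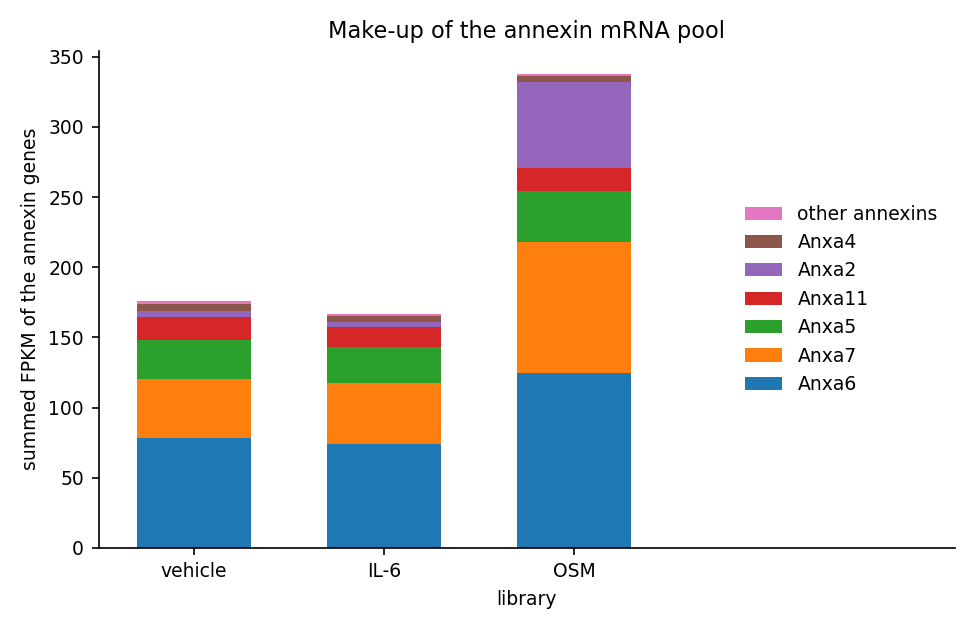
Summed FPKM of the 12 annexin genes, as a stacked bar for each of the vehicle, IL-6 and OSM libraries. Anxa6, Anxa7, Anxa5, Anxa11, Anxa2 and Anxa4 are drawn singly and the other annexins together. The bars reach 176, 167 and 337 FPKM. Anxa2 makes up 2.38%, 1.98% and 18.1% of the bars, and Anxa6 and Anxa7 are the largest parts of each.

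The remaining annexin genes of the table were scarce. Anxa8 had 5 counts with vehicle, 19 with IL-6 and 18 with OSM, Anxa9 had 20, 16 and 7, and Anxa13 had 18, 34 and 22. Anxa10 had 0 counts in each library. None of these passed the call in any comparison. Genes that overlap a member on the map had at most 4 counts in a library, Anxa11os opposite Anxa11 being 1 of them, with 4, 0 and 0 counts.

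Human IL-6 gave no call for any member. For Anxa2 the log2 fold change for IL-6 against vehicle was -0.34 (-0.56 to -0.13). For S100a10 it was -0.48 (-0.98 to 0.01), with 82 counts in the vehicle library and 63 in the IL-6 library. Both genes thus had slightly lower values with IL-6 than with vehicle, and for S100a10 the interval included 0. Of the 10 members, 5 had an interval wholly below 0 and 0 had one wholly above, beside 19.1% below and 19.6% above over all compared genes. The members' median was -0.18, beside a median of -0.00 over all genes.

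Against the IL-6 library, OSM gave the same 4 members as against vehicle. The log2 fold change was 4.21 for Anxa2 (4.05 to 4.37) and 4.34 for S100a10 (3.98 to 4.73). Both are larger than the values against vehicle. The members' median was 0.76, beside 0.00 over all genes, and for OSM against vehicle it was 0.54, also beside 0.00. At the level of the intervals, 6 of 10 members lay wholly above 0 and 2 wholly below for OSM against vehicle, beside 33.4% and 33.1% of all genes.

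Gene length moved with the fold change between these libraries. For OSM against vehicle, the median log2 fold change of protein-coding genes that averaged 100 counts or more was 0.47 in the shortest eighth (243 to 2122 bases) and -0.56 in the longest eighth (9608 to 123179 bases). For IL-6 against vehicle it was 0.02 and -0.03 in the same order. S100a11, at 511 bases, is the shortest member, and the genes nearest to it in length ran from 243 to 1497 bases and so include longer genes. Their median was 0.55 for OSM against vehicle, and S100a11 lay 1.84 above it. Anxa2, at 3731 bases, lay 3.73 above the median of genes of its length, S100a10 (1212 bases) 3.35 above, and Anxa7 (5991 bases) 1.22 above. The OSM against vehicle calls of Anxa2, S100a10, S100a11 and Anxa7 were kept when this median was subtracted. Anxa5, by contrast, had the value of genes of its length, with 0.41 beside a median of 0.40. For Anxa6 the value above the median was 0.42. With this subtraction the median of the 10 members for OSM against vehicle was 0.22 in place of 0.54, and that of the 8 annexins was 0.02. For OSM against IL-6 the median of the members compared was 0.52 in place of 0.76. The part of length in these values was otherwise not tested.

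**Figure D5:**
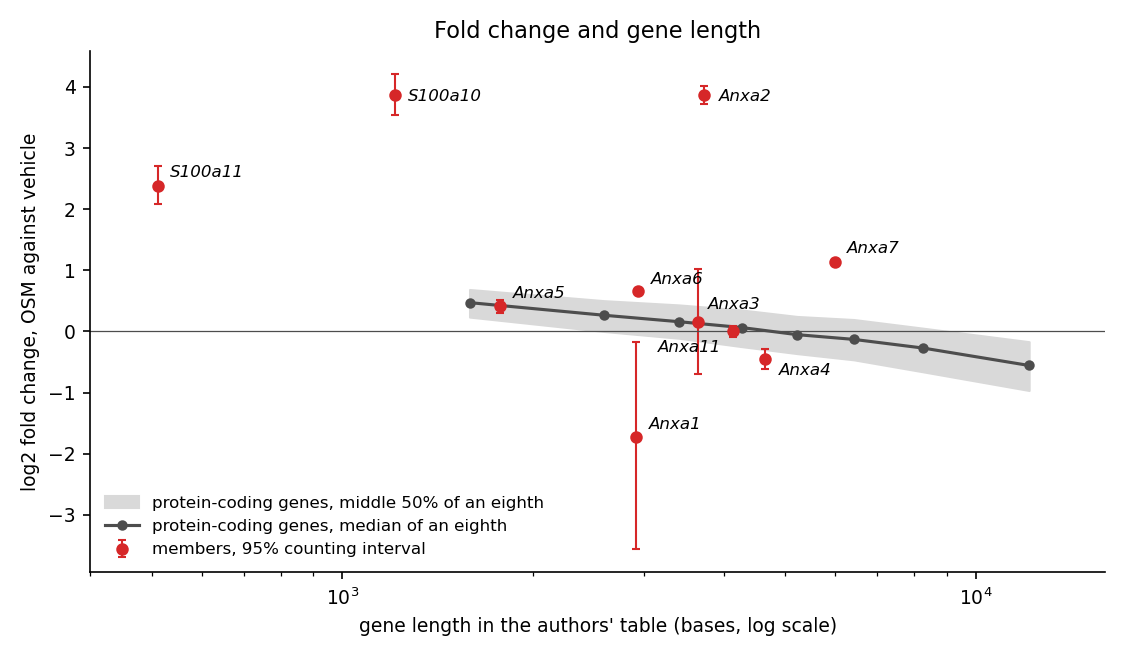
Log2 fold change of OSM against vehicle by gene length in bases (log scale), for the members (points with 95% counting intervals) over the median and middle 50% of protein-coding genes in eighths by length. Anxa2, S100a10, S100a11 and Anxa7 stand higher than any part of the band, and Anxa5 lies on the median, at 0.41 beside 0.40.

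Partners and pathway neighbours of the annexins were described from lists. Of 18 annexin binding partners, 15 could be compared, and for OSM against vehicle 1 was called higher and 0 lower, with a median of 0.24 beside 0.00 over all genes (0.09 after subtraction of the length median). This count of 1 in 15 stands beside 3.74% of all genes. The gene was Pla2g4a, the cytosolic phospholipase whose activity annexins restrain, with 32 counts with vehicle, 32 with IL-6 and 155 with OSM. Its log2 fold change was 2.03 (1.48 to 2.63). For IL-6 against vehicle 0 were higher and 1 was lower, beside 1.74% lower of all genes, with a median of -0.07. That gene was Plau, the plasminogen activator urokinase, which had 32 counts with vehicle, 0 with IL-6 (a floor of 0.114 CPM) and 42 with OSM. For OSM against IL-6, 3 were higher and 0 lower, beside 4.24% higher of all genes, with a median of 0.27, namely Pla2g4a, Plau and Plaur, the urokinase receptor, which had 27, 15 and 66 counts in the vehicle, IL-6 and OSM libraries. The most abundant gene of the list was S100a1, the main S100 protein of heart muscle, at 530.3 FPKM with vehicle, 517 FPKM with IL-6 and 828 FPKM with OSM.

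Membrane repair genes outside the annexins were also listed. Of 23 listed, 22 were compared, and 1 was higher and 0 lower for OSM against vehicle, near the 3.74% of all genes. The list's median was 0.23, and 0.13 after subtraction of the length median. The called gene was Cav3, the muscle caveolin, with 594 counts with vehicle, 730 with IL-6 and 3083 with OSM and a log2 fold change of 2.13 (2.01 to 2.26). The same gene alone was called for OSM against IL-6 (median 0.20), beside 4.24% higher of all genes, and 0 were called for IL-6 against vehicle (median -0.02). The most abundant of the list was Ehd4, a membrane-shaping ATPase, at 212 FPKM with vehicle, 203 FPKM with IL-6 and 272 FPKM with OSM.

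Most other S100 genes had no counts in these libraries. Of 15 in the table, 10 had 0 counts with vehicle, and the 4 that could be compared gave 0 calls in each comparison. Their median log2 fold change was 0.67 with OSM and 0.02 with IL-6, each against vehicle, and 0.68 between OSM and IL-6. After subtraction of the length median it was 0.17 in both comparisons that include OSM. S100a1, S100a4 and S100a6 belong to this list and to that of binding partners.

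Target genes of STAT3, a transcription factor that JAK1 activates, were read beside the members. The list was chosen with earlier results of these data known. It leaves out Vegfa, a STAT3 target that the study reports as not raised by OSM. Of 16, 10 were called higher and 0 lower for OSM against vehicle (median 1.61), 0 in either direction for IL-6 against vehicle (median 0.06), and 9 higher and 0 lower for OSM against IL-6 (median 1.26). In the same order, 3.74%, 1.77% and 4.24% of all genes were higher and 5.43%, 1.74% and 5.42% were lower. The largest fold changes for OSM against vehicle were 4.81 for Timp1, a protease inhibitor (4.61 to 5.02), and 4.52 for Socs3, a feedback inhibitor of JAK signalling (4.41 to 4.63), on the log2 scale. Cebpd, a transcription factor, followed at 4.16 (3.79 to 4.55), and Bcl3, a regulator of NF-kappaB, at 2.46 (2.18 to 2.75). Anxa2 and S100a10, at 3.87 and 3.86, lay between Cebpd and Bcl3, and their intervals overlap that of Cebpd. Of 12 reference genes, 0 were called for OSM against vehicle (median 0.42) or IL-6 against vehicle (median 0.02), and 1, Gapdh, was higher for OSM against IL-6 (median 0.34). Gapdh had few counts, 147 with vehicle, 105 with IL-6 and 357 with OSM. At 1.41 FPKM with vehicle it was far below Rplp0, the most abundant of the list at 674 FPKM. Why the Gapdh level was so low was not tested.

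Few marker genes of cell types passed the call. For OSM against vehicle, 2 of 12 cardiomyocyte markers were lower, beside 5.43% of all genes, Ttn at -1.64 and Ryr2 at -1.53 on the log2 scale. Both are long genes, and after subtraction of the length median they stood at -0.86 and -0.75, which is no longer beyond 2-fold. None of 8 endothelial, 6 fibroblast, 4 macrophage and 6 smooth muscle and pericyte markers compared were called. Krt19 was lower among 3 mesothelial and epicardial markers compared, with 18, 20 and 0 counts in the vehicle, IL-6 and OSM libraries, and this list summed to 0.532, 1.03 and 0.345 FPKM. Cd28 was the T cell marker with counts enough to compare, at 205, 206 and 32 counts, and it was lower with OSM, while Cd3e and Cd3g had 0 counts in every library. T cell markers summed to 1.32, 1.24 and 0.326 FPKM. Neutrophil markers summed to 0.166, 0 and 0.0965 FPKM and none could be compared. For IL-6 against vehicle, Msln (1 and 33 counts) was the sole marker called, and it was higher, as were 1.77% of all genes. For OSM against IL-6, Ttn, Ryr2, Krt19, Cd28 and the fibroblast gene Col1a2 (41 and 6 counts) were lower, and Lyz2 (4 and 31 counts) and Cnn1 (0 and 13 counts) were higher, beside 5.42% lower and 4.24% higher of all genes. The part of other cell types in the members' values was not tested.

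The genes most like the called members were sought over the 3 libraries, among 9879 genes with at least 100 counts as the average of the libraries, by Euclidean distance in log2 FPKM centred on each gene's mean. For Anxa2 the nearest gene was S100a10, at a distance of 0.112, followed by Rnf122 (0.161) and Angptl4 (0.217). Anxa2 was in turn the nearest gene to S100a10, followed by Rnf122 (0.149) and Ptgs2 (0.170). S100a10, with 82 counts with vehicle and 63 with IL-6, passed the minimum through the OSM library, where it was high, so its nearness to Anxa2 is a description only. Rnf122, Angptl4 and Ptgs2 were also high in the OSM library alone, at 11.9, 54.3 and 5.83 FPKM there. The distances carry no counting error. With vehicle, the 95% interval of S100a10 alone ran from 2.13 to 3.32 FPKM, so the order of near ranks is not fixed. For S100a11 the nearest were Slc35g2 (0.0902), Rrad (0.0992) and Frmd4a (0.122). Anxa7 was number 242 from S100a11, Anxa2 number 466 and S100a10 number 596. Counted from Anxa2, S100a11 was number 45. For Anxa7 the nearest were Cttn (0.00981), Lsm1 (0.0234) and Tec (0.0240).

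Position was described for the members called highest. S100a10 and S100a11 lie in the S100 gene cluster and were each other's sole protein-coding neighbour within 200 kb with at least 10 counts. Both were called higher with OSM. Around Anxa2 the sole such neighbour was Ice2, which starts at -55.7 kb from it, with 224 counts with vehicle, 294 with IL-6 and 225 with OSM. Ice2 was not called in any comparison, and its log2 fold change for OSM against vehicle was -0.24 (-0.51 to 0.04).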

How the data were processed

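The deposited counts are whole fragments per gene for 1 library each of vehicle, IL-6 and OSM. The authors also deposited FPKM values, which are those counts divided by gene length and by a constant per library. The gene length in bases is the deposited column of the authors' annotation. The submitters' processing notes name fastp, HISAT2 2.2.1, featureCounts 2.0.6, edgeR 4.0.16 and build mm39, while the study's methods name other versions of featureCounts and edgeR. The strand setting and the treatment of reads that match several places are not given in the sources used here. The tables differ in the order of their genes and were joined by gene identifier, and 0 columns of per-sample values were left unmatched. TMM factors were computed for each pair of libraries over all genes (edgeR 4.0.16, R 4.3.3). Log2 ratios and 95% Clopper-Pearson intervals were computed with scipy 1.17.1, numpy 2.4.6 and pandas 2.3.3 in Python 3.11.15, and figures drawn with matplotlib 3.10.9. Genes needed at least 10 counts over the pair, the floor was 3 counts, and a call needed the whole interval beyond 2-fold. The calling rule was also run on simulated counts that held counting error only. That run cannot speak to the spread between cultures or animals. Copies of transcripts (GENCODE M39, canonical) were sought in the GRCm39 genome with BLAST 2.17.0, at 95% identity over at least 50 bases.

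The named genes were the 10 members, other genes whose symbol is Anxa and a number, pseudogenes of members by name, up to 5 called genes and the most abundant gene of each list, protein-coding neighbours within 200 kb, and the 3 nearest genes by likeness among those with at least 100 counts on average. The lists were annexin binding partners, membrane repair, other S100 genes, STAT3 targets, reference genes and markers of cardiomyocytes, endothelial cells, fibroblasts, macrophages, smooth muscle and pericytes, mesothelium and epicardium, neutrophils and T cells. The members and lists were chosen with earlier results of these data known. Alternatives tried were DESeq2 1.42.0 size factors, total counts, no filter, an added count, 99% intervals, folds of 1.5 and 4, the point estimate, FPKM ratios, counts in place of FPKM, thinning to the smaller library, subtraction of the median of 501 genes of like length, and the exact test of edgeR under an assumed coefficient of variation of 0.2 or 0.4 (adjusted p under 0.05 and 2-fold). Adding pseudogene counts to S100a11 was chosen after seeing the data.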

Additional observations from a re-analysis of the deposited data

How the results depend on the processing

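With 1 pooled library per condition, neither animals nor cultures could be compared, and the intervals cover counting error only. Of 177 log2 fold changes of members recomputed under alternatives that can alter such a value, 163 stayed within the counting interval and 14 moved beyond it, 10 with the length median subtracted and 4 with total counts, and 0 of the called ones changed sign. The count filter and the 99% interval leave the value itself as it is. Of the 177, 29 were FPKM ratios, which shift every gene of a comparison by the same small amount. Anxa2 went from 3.8668 to 3.8688 for OSM against vehicle, so these 29 say little about robustness. For OSM against vehicle, Anxa2 ranged from 3.73 to 3.88, S100a10 from 3.35 to 3.90, S100a11 from 1.84 to 2.44 and Anxa7 from 1.08 to 1.22. Anxa11, at 0.00 and not called, was the member that changed sign, reaching -0.08. With total counts in place of TMM, the median of all genes shifted by -0.06 in the comparison of OSM with vehicle and by -0.08 in that with IL-6.

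The number of members called higher differed with the calling rule. With an exact test (adjusted p and 2-fold) in place of the interval, it was 3 for OSM against vehicle at an assumed coefficient of variation of 0.2 (Anxa2, S100a10 and S100a11), beside 4.07% of all genes. At 0.4 it was 2 (Anxa2 and S100a10) for OSM against vehicle, and 2 with IL-6 as the base, in place of 4 each. Over all genes, 0.277% were then higher and 0.0708% lower for OSM against vehicle, so that the balance of higher and lower calls turned, and 0.367% and 0.129% with IL-6 as the base. At 0.2 the same test gave 4.07% higher and 5.55% lower for OSM against vehicle. With IL-6 as the base it gave 4.56% higher and 5.73% lower. Within the exact test the balance thus turned between the assumed values of 0.2 and 0.4. Between the interval and the exact test, rule and spread differ together, and the cause of that difference was not tested. With the point estimate in place of the interval, 1 member, Anxa1, was called lower for OSM against vehicle and 1 for IL-6 against vehicle, in place of 0, by the removal of the interval, and 13.1% and 6.62% of all genes were lower by that rule. A 4-fold line left 3 members higher for OSM against vehicle (Anxa2, S100a10 and S100a11), beside 0.817% of all genes, and a 1.5-fold line gave 5, with Anxa6 added, beside 8.73%. By counts in place of FPKM, which leaves gene length in, the ratio of S100a10 to Anxa2 was 0.208 with vehicle, 0.189 with IL-6 and 0.207 with OSM, and Anxa2 made up 17.4% of annexin counts with OSM.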
